A study of Rattus norvegicus with 9 samples.

Results

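The acinar digestive enzymes described here are the products of 10 rat genes, measured on arrays of RNA from isolated pancreatic islets. They comprise the amylases Amy1 and Amy2a3, the carboxypeptidases Cpa1 and Cpb1, the serine proteases Prss1, Ctrb1, Cela1 and Cela2a, and the lipases Cel and Pnlip. The genes were chosen by name, and every probe set that the platform annotation assigns to them was taken. This gave 11 of 31042 probe sets, namely 1 probe set for each of the 10 genes, of 14217 genes in all, and 1 that the annotation assigns to Amy2a3 and Amy1 together. All 11 probe sets passed the filter on dim probe sets.

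All animals were male Zucker Diabetic Fatty rats (ZDF, fa/fa), an obese and diabetic strain with a defective leptin receptor, and all were fed the Purina 5008 diet. The treated group (3 arrays) ate rosiglitazone, an antidiabetic drug that activates PPAR gamma, at 3 mg per kg body weight from week 5 and was sampled at 9 weeks of age. The withdrawal group (3 arrays) ate the same dose over weeks 5 to 9 and was sampled at 11 weeks, 2 weeks after the drug was stopped. The untreated group (3 arrays) received no drug and was sampled at 13 weeks. Of 24 animals randomised in the study, the number behind each array was not given in the sources used here. The labels call the arrays of a group biological replicates, but they also speak of equal amounts of RNA from 3 replicates, so the p-values measure only the spread between these arrays. Drug and age differed together in every comparison and cannot be told apart.

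Acinar cells make up most of the exocrine pancreas and secrete digestive enzymes, many of them as inactive zymogens, into the duct. They store the enzymes in zymogen granules, and their enzyme genes share control by the factors Ptf1a, Rbpjl, Bhlha15 and Nr5a2. Amylases digest starch, carboxypeptidases and serine proteases digest protein, and lipases digest fat. Islets are endocrine, so the RNA of these enzymes in an islet preparation is ordinarily taken as exocrine tissue that remained attached. In whole islet RNA, fewer acinar cells and less RNA per cell cannot be told apart.

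Values are log2 intensities as the authors deposited them, and a difference is the mean of the first group minus that of the second. Beta cell markers, which define the labelled tissue, were present on every array, with list means from 11.15 to 12.04. The acinar markers were present as well. The brightest probe set of an array reached 14.17 to 14.36, and the array medians lay at 5.74 to 5.81. A probe set was called when the adjusted p of limma was under 0.05 over 20695 tested probe sets. The arrays were not brought to a common distribution, and treated arrays had the wider spread. The median difference of all tested probe sets was 0.16 for treated minus untreated and −0.19 for withdrawal minus treated, and after quantile normalization the first became 0.02.

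The sequences upstream of 4 of the genes are printed: those of both amylases and, as examples with both boxes described below, those of Ctrb1 and Cela1. RefSeq promoters were at hand for 9 of the 10 genes (build GRCr8), all but Cela2a, each covering 250 bases before to 50 after the start site. They were searched on both strands for CACCTG, the E-box form bound by Ptf1a and its partner, for TTTCCC, the box bound by Rbpjl or Rbpj in the same complex, and for TATAAA. The 250 bases before the start of Amy1 (chr2:204085911-204086160, minus strand), Amy2a3 (chr2:204014413-204014662, minus strand), Ctrb1 (chr19:56566979-56567228, minus strand) and Cela1 (chr7:133665062-133665311, minus strand) follow, 5′ to 3′, with matches in capitals.
Amy1: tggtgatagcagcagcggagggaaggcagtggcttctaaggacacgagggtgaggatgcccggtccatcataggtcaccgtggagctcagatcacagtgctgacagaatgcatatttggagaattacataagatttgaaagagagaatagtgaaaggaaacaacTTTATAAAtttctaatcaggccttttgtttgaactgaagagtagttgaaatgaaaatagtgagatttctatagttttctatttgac
Amy2a3: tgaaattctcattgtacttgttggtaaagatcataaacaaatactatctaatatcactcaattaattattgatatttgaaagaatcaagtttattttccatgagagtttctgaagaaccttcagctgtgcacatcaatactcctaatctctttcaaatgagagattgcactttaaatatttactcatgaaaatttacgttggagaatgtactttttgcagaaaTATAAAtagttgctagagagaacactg
Ctrb1: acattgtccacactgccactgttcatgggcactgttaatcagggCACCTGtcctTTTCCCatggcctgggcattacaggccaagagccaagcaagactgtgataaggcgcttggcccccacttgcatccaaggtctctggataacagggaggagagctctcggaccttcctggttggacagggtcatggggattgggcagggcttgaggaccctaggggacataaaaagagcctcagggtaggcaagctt
Cela1: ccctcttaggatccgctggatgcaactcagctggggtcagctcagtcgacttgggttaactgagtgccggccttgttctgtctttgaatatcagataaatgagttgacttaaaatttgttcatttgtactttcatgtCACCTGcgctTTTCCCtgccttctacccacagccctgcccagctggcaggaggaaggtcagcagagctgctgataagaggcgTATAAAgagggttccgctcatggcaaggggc

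CACCTG was found in 5 of the 9 promoters, against 18.8% of 33469 rat promoters of the same length. TTTCCC was found in 6 of 9 against 25.1%, and 4 of 9 held both against 4.4%. TATAAA was found in 6 of 9 against 14.2%, and in Amy2a3, Cpb1, Prss1, Cela1 and Pnlip it began 25 to 32 bases before the start. In Ctrb1 and Cela1 the E-box and the TTTCCC box lay on one strand with 4 bases between them (CACCTGTCCTTTTCCC and CACCTGCGCTTTTCCC), a spacing looked for after these sequences were seen. That spaced pair occurred in 9 of 33469 promoters, or 0.027%. Besides Ctrb1 and Cela1 these were the trypsinogen gene Prss2 and LOC102554637, Drc12, Fbxl2, Arrdc5, Arpc2 and Polr1d. The Amy1 window held neither CACCTG nor TTTCCC, and its overlapping TATAAA matches began 84 and 86 bases before the start. The Amy2a3 window held TTTCCC only after the start site, outside the printed stretch, and no CACCTG. Such gaps were not particular to the amylases: Cpa1 held none of these motifs, Cpb1 no TTTCCC and Pnlip no CACCTG. A match describes letters and not a binding site.

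Amy1 was the enzyme gene that varied most. It encodes the amylase named for the salivary gland, where it is mainly made in mouse. Its values were 7.15, 10.14 and 9.38 on treated arrays 1, 2 and 3, 7.32, 7.93 and 8.12 on withdrawal arrays, and 6.26, 6.52 and 6.48 on untreated arrays. Every treated array and every withdrawal array lay above the untreated arrays, while treated array 1 lay below all withdrawal arrays. The group means were 8.89 ± 1.55 (SD, n = 3), 7.79 ± 0.42 and 6.42 ± 0.14.

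**Figure D1:**
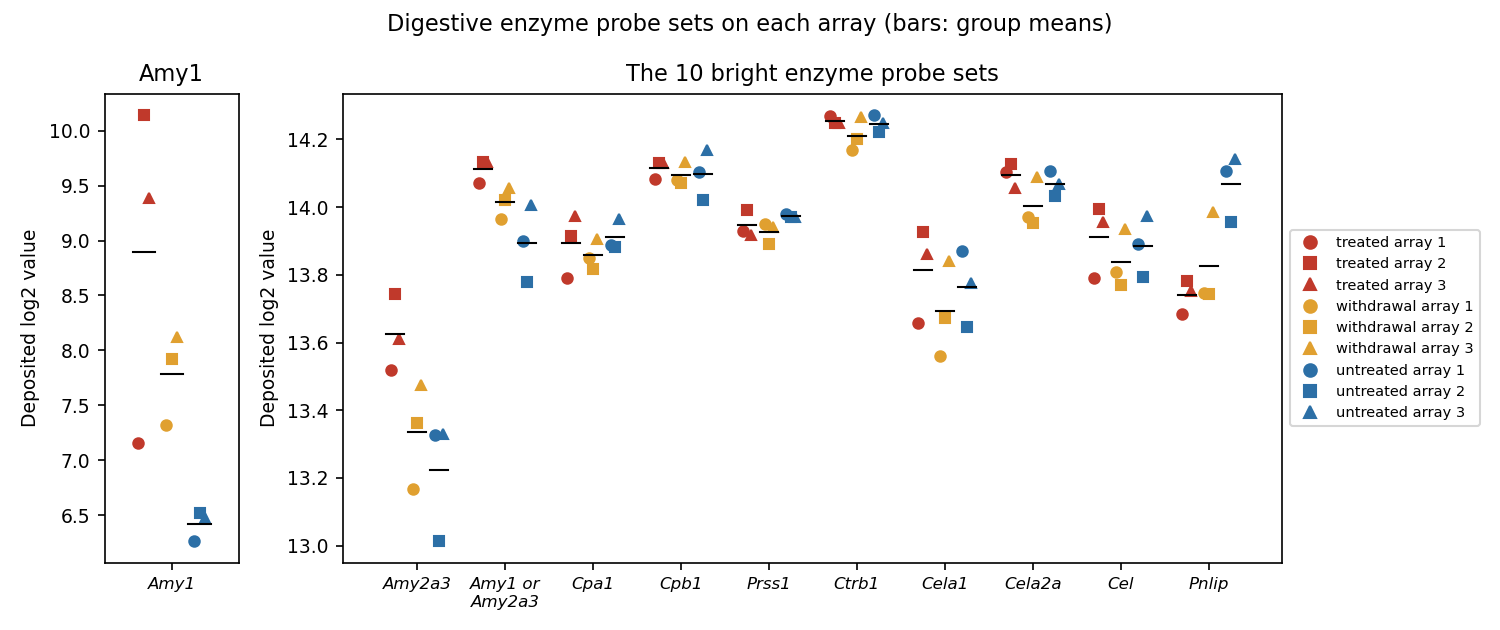
Deposited log2 values (y axis) of the 11 enzyme probe sets (x axis) on each of the 9 arrays, with colour for the group, marker shape for the array number and a bar for each group mean; Amy1 has its own axis. Amy1 spans 3.88 over the arrays, while the other probe sets lie between 13.01 and 14.27.

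Amy1 rose by 2.48 ± 0.55 (SE; 95% confidence interval 1.28 to 3.67) on treated against untreated arrays (limma adjusted p = 0.00916). After quantile normalization it rose by 2.19 (adjusted p = 0.0232 by limma). It passed in all 18 alternative fits, with differences from 1.85 without treated array 2 to 3.35 without treated array 1. For withdrawal minus untreated the difference was 1.37 ± 0.55 and did not pass (limma adjusted p = 0.610), although the groups did not overlap. For withdrawal minus treated it was −1.11 ± 0.55 (limma adjusted p = 0.121).

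Whether either of those passed depended on the fit and on treated array 1, the lowest treated array for Amy1. With all 9 arrays kept, both passed with array weights, and withdrawal minus treated passed with the replicate block. Without treated array 1, withdrawal minus untreated stayed at 1.37 and passed (limma adjusted p = 0.00105). That difference uses no treated array, and only the shared spread and the adjustment of p changed. The fall from treated to withdrawal arrays became 1.98 (limma adjusted p = 3.94e-05). Leaving out the lowest treated array had to enlarge that fall, so these fits are a description and not a test. With that array left out and the rest quantile normalized, the same differences were 1.46 (limma adjusted p = 0.00436) and −1.52 (limma adjusted p = 0.000979). With only the 6 arrays compared in the fit, withdrawal minus untreated passed as well (limma adjusted p = 0.000456). The order of the means was treated, withdrawal, untreated with and without that array.

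Amy2a3 encodes pancreatic alpha-amylase, the isoform stored in zymogen granules. It read 13.52, 13.74 and 13.61 on treated, 13.17, 13.36 and 13.48 on withdrawal, and 13.33, 13.01 and 13.33 on untreated arrays. The treated arrays lay above all others, and the withdrawal and untreated arrays overlapped. Amy2a3 rose by 0.40 ± 0.14 (SE; 0.10 to 0.70) on treated against untreated arrays, just inside the threshold (limma adjusted p = 0.0472). The call was lost in 12 of 18 alternative fits, among them quantile normalization (0.31, limma adjusted p = 0.0705) and 8 of the 9 fits that left out 1 array, with differences from 0.30 without untreated array 2 to 0.46 without untreated array 3. For withdrawal minus untreated the difference was 0.11 ± 0.14, and for withdrawal minus treated −0.29 ± 0.14 (limma adjusted p = 0.906 and 0.107).

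The probe set shared by Amy2a3 and Amy1 read 14.07, 14.13 and 14.13 on treated, 13.97, 14.02 and 14.06 on withdrawal, and 13.90, 13.78 and 14.01 on untreated arrays. Here too the treated arrays lay above all others. The difference of treated minus untreated was 0.22 ± 0.11 (limma adjusted p = 0.164). The gene table places Amy1 and Amy2a3 near each other on chromosome 2 with 1 unnamed gene between them, and transcripts of the close amylase copies may share probes.

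Cpa1 and Cpb1 encode procarboxypeptidases, which remove amino acids from the ends of peptides. Cpa1 read 13.79, 13.92 and 13.97 on treated, 13.85, 13.82 and 13.91 on withdrawal, and 13.89, 13.88 and 13.97 on untreated arrays. Cpb1 read 14.08, 14.13 and 14.13, then 14.08, 14.07 and 14.13, then 14.10, 14.02 and 14.17 in the same order. The 3 groups overlapped for both genes. Treated minus untreated was −0.02 (95% confidence interval −0.26 to 0.23) for Cpa1 and 0.02 (−0.22 to 0.26) for Cpb1.

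Prss1 encodes a trypsinogen, anionic in rat, the zymogen of a protease that activates the other zymogens. It read 13.93, 13.99 and 13.92 on treated, 13.95, 13.89 and 13.94 on withdrawal, and 13.98, 13.97 and 13.97 on untreated arrays. The withdrawal arrays lay below the untreated arrays without overlap, but by 0.05 on average (95% confidence interval of withdrawal minus untreated −0.28 to 0.19). Trypsinogen genes are close copies, so probes may be shared among them.

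Ctrb1, which encodes chymotrypsinogen B, was the brightest or second brightest probe set on each array. Its values were 14.27, 14.25 and 14.25 on treated, 14.17, 14.20 and 14.27 on withdrawal, and 14.27, 14.22 and 14.25 on untreated arrays. Over all 9 arrays it spanned 0.10, with the groups overlapping. Treated minus untreated was 0.01 (95% confidence interval −0.23 to 0.24).

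Cela1 and Cela2a encode proelastases, zymogens of serine proteases. Cela1 read 13.66, 13.93 and 13.86 on treated, 13.56, 13.67 and 13.84 on withdrawal, and 13.87, 13.65 and 13.78 on untreated arrays. Cela2a read 14.10, 14.13 and 14.06, then 13.97, 13.95 and 14.09, then 14.11, 14.03 and 14.07. In both the groups overlapped, and treated minus untreated was 0.05 (−0.23 to 0.34) for Cela1 and 0.03 (−0.21 to 0.26) for Cela2a. Withdrawal minus treated was −0.12 for Cela1 and −0.09 for Cela2a, within the spread of the arrays.

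Cel encodes carboxyl ester lipase, a lipase activated by bile salts. Its values were 13.79, 13.99 and 13.96 on treated, 13.81, 13.77 and 13.94 on withdrawal, and 13.89, 13.79 and 13.97 on untreated arrays, and the groups overlapped. Treated minus untreated was 0.03 (95% confidence interval −0.23 to 0.29).

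Pnlip encodes the main pancreatic triglyceride lipase and was the enzyme that stood apart in the other direction. Its values were 13.69, 13.78 and 13.75 on treated, 13.75, 13.74 and 13.99 on withdrawal, and 14.11, 13.96 and 14.14 on untreated arrays. All treated arrays lay below all untreated arrays, and the withdrawal arrays overlapped with both. Treated minus untreated was −0.33 ± 0.12 (SE; −0.59 to −0.07), which missed the threshold (limma adjusted p = 0.0604). It passed after quantile normalization (−0.36, limma adjusted p = 0.0307), with array weights (−0.35, limma adjusted p = 0.0222) and with quantile normalization without treated array 1 (−0.32, limma adjusted p = 0.0434). Withdrawal minus untreated was −0.24 ± 0.12 (limma adjusted p = 0.716). Of the related lipases outside the 10 genes, Pnliprp1 had a treated minus untreated difference of −0.23 and Pnliprp2 one of 0.13. For colipase, Clps, it was −0.15 and for phospholipase A2, Pla2g1b, 0.16, and none of these 4 passed (limma adjusted p = 0.189, 0.563, 0.470 and 0.277).

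**Figure D2:**
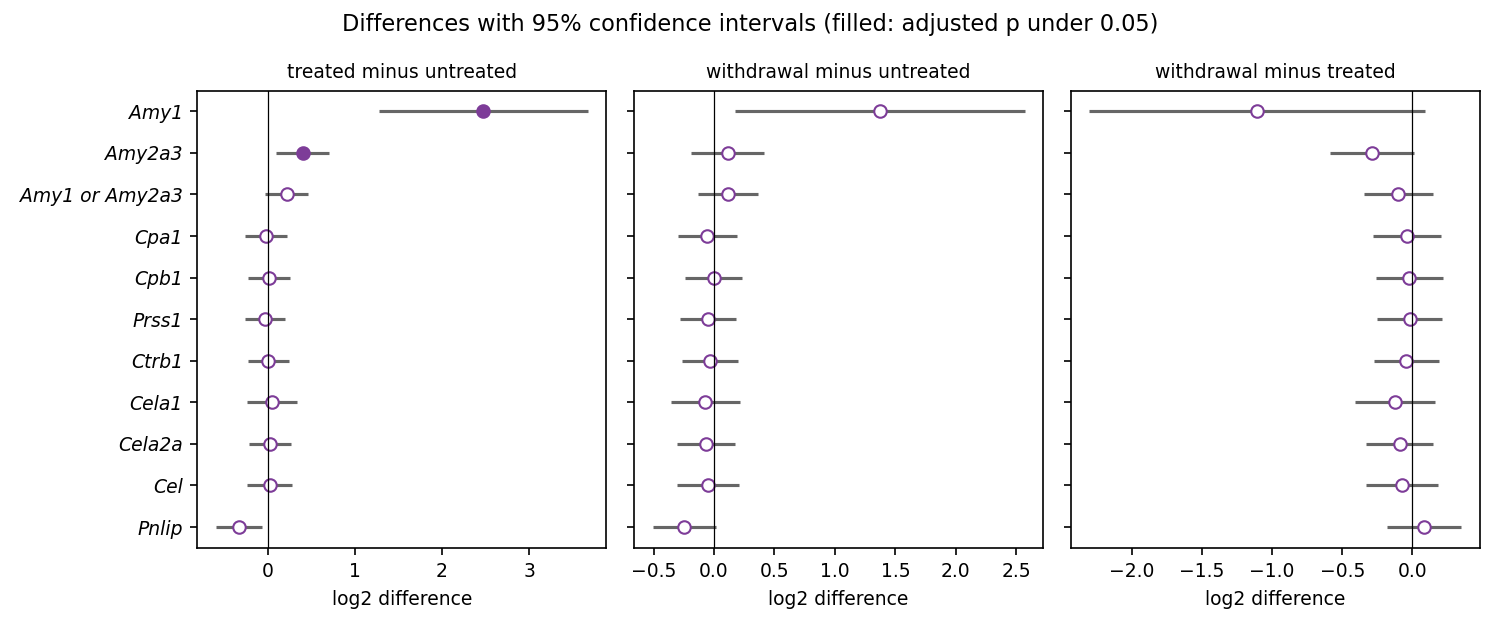
Log2 differences (x axis) of the 11 enzyme probe sets (y axis) in the 3 comparisons, with 95% confidence intervals from limma as bars and filled points for an adjusted p under 0.05. In treated minus untreated, Amy1 at 2.48 and Amy2a3 at 0.40 are filled, and Pnlip lies at −0.33.

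Counted together, 2 of 11 enzyme probe sets were called in treated minus untreated (Amy1 and Amy2a3, both higher), where 28.1% of all tested probe sets were called. The groups did not overlap in 4 of 11 (both amylase probe sets, the shared one and Pnlip), against 42.9% of all tested. Of the 11 differences 7 were within 0.15 of 0, and their median was 0.03 against 0.16 over all tested probe sets. In withdrawal minus untreated, limma called 0 of 11 (1 at an unadjusted p under 0.05, Amy1), against 0.159% of all, and 2 did not overlap (Amy1 and Prss1), against 18.0% of all. In withdrawal minus treated, limma called 0 of 11 (0 at an unadjusted p under 0.05) where it called 43.8% of all, and 2 did not overlap (Amy2a3 and the shared probe set), against 53.9%. The F test of limma over the 3 groups called Amy1 (adjusted p = 0.0131) and none of the other 10, against 37.0% of all. The comparisons share groups of arrays, so their counts are not independent.

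Apart from Amy1, the enzyme probe sets lay at the top of the array scale. The 10 probe sets read 13.01 to 14.27, were among the 39 brightest on every array, and lay at most 1.21 below the brightest probe set of their array. Their spans over the 9 arrays ran from 0.10 to 0.73, with a median of 0.20. The other 90 of the 100 brightest probe sets had a median span of 0.85 and a median treated minus untreated difference of 0.32, against 0.02 for the 10.

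Brightness and gene identity could not be separated at the top of the scale. Outside the acinar and Reg lists, the median span of tested probe sets rose from 0.75 at a mean of 6 to 7 to 1.32 at 10 to 11, then lay at 1.18 at 11 to 12 and 0.91 at 12 to 13. Their median treated minus untreated difference was 0.10, 0.58, 0.54 and 0.39 in the same classes. Above 13 few such probe sets were left: 9 at 13 to 13.5 with a median span of 0.60, 2 at 13.5 to 14 with 0.40 and 4 above 14 with 0.18. Genes of the acinar and Reg lists made up 15 of the 17 tested probe sets at 13.5 to 14 and 4 of the 8 above 14, the enzymes among them. A small difference in these enzymes does not show that their RNA was alike between groups, and whether saturation compressed it was not tested. Amy1, at rank 674 to 12487, was not near the top.

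**Figure D3:**
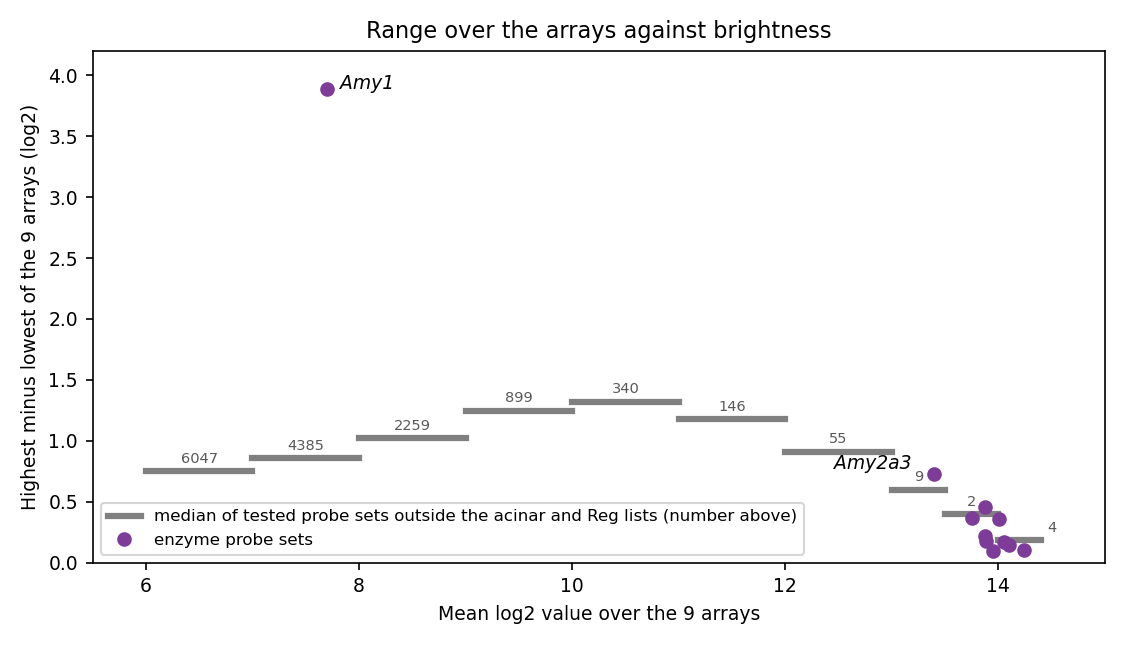
Highest minus lowest log2 value over the 9 arrays (y axis) against the mean log2 value (x axis), with points for the 11 enzyme probe sets and grey bars for the median of the tested probe sets outside the acinar and Reg lists in each brightness class, with their number above. The bars rise to 1.32 at 10 to 11 and lie at 0.18 above 14, where they rest on 4 probe sets; Amy1 stands at 3.88.

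Within groups, single arrays set the order of the enzymes. Treated array 1 was the lowest treated array in 8 of 11 enzyme probe sets, against 30.1% of all tested probe sets, and treated array 2 was the highest in 8 of 11, against 29.5%. Withdrawal array 3 was the highest of its group in 10 of 11 and untreated array 2 the lowest of its group in 10 of 11, but these arrays held the same place in 96.7% of the other 90 brightest probe sets. The low place of treated array 1 was not shared by the other bright probe sets, of which 25.6% were lowest there.

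Markers of other cells moved the opposite way on treated array 1. Of 10 macrophage markers 9 were highest on that array among the treated, and the list mean ran from 5.80 to 7.35 on treated, 6.94 to 7.07 on withdrawal and 6.33 to 6.48 on untreated arrays. Of 13 duct markers 11 were highest there, with list means of 8.37 to 9.24 on treated, 8.38 to 8.60 on withdrawal and 8.33 to 8.68 on untreated arrays. The stellate and matrix list ran from 9.30 to 10.75 on treated, 10.16 to 10.35 on withdrawal and 9.75 to 10.26 on untreated arrays. All 9 endothelial markers were highest on treated array 1 too. The islet lists, which are not plotted, went the same way. There 5 of 7 beta cell markers and 3 of 5 other islet hormones were highest on treated array 1, and 0 were lowest. The share of all tested probe sets that were highest there was not counted. The part of these lists in the enzyme values was not tested. Of the salivary gland markers, 4 of 9 listed were on the array and none of them passed the filter on dim probe sets, with list means between 3.75 and 4.26.

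**Figure D4:**
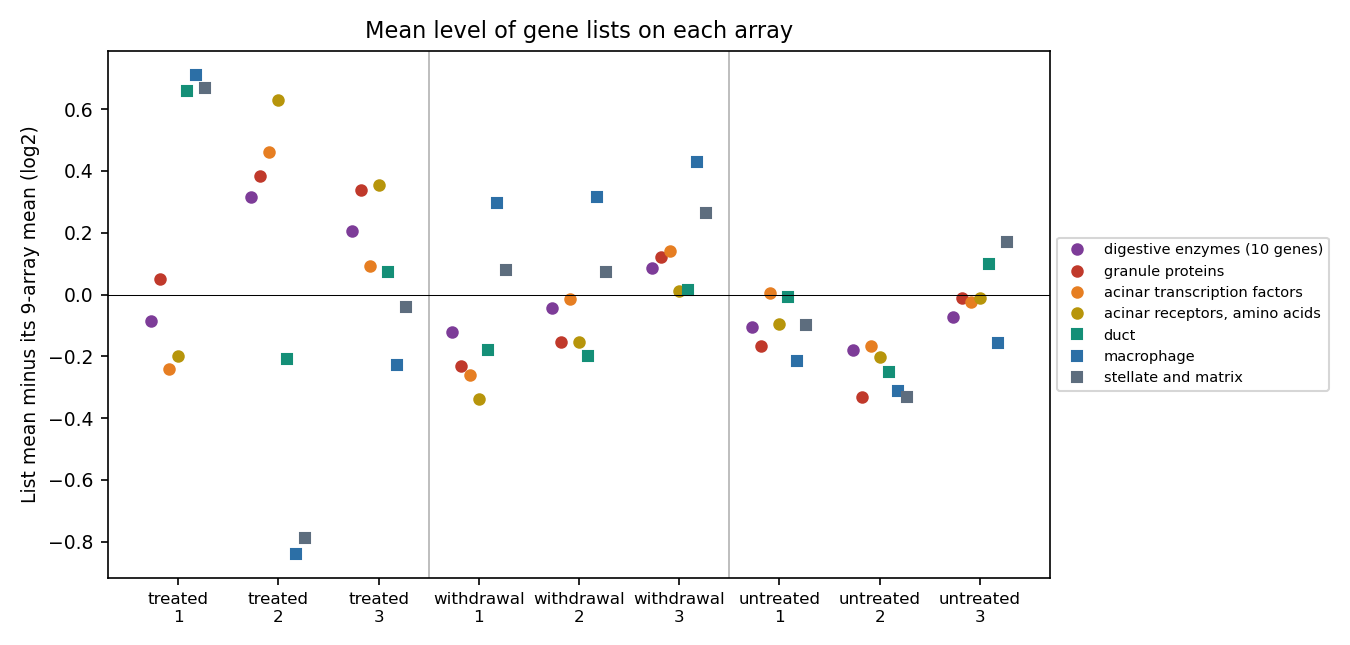
Mean log2 value of each gene list on each array minus the list's mean over the 9 arrays (y axis), by array (x axis), with circles for acinar lists and squares for duct, macrophage and stellate lists. On treated array 1 the squares lie high and the circles near or below 0, and on treated array 2 the order is turned. The enzyme circle is the mean of the 10 genes with Amy1 included, and that mean ran from 13.20 to 13.60 on treated arrays. The 10 enzyme probe sets other than Amy1 had means of 13.89 to 14.00 there.

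The list of other digestive enzymes held no call. Of 20 listed, 12 were on the array, and limma called 0 of 12 in each comparison (0, 1 and 0 at an unadjusted p under 0.05 in treated minus untreated, withdrawal minus untreated and withdrawal minus treated). Of all tested probe sets 28.1%, 0.159% and 43.8% were called in these comparisons. The median difference of the 12 was 0.01, −0.05 and −0.06. Chymotrypsin C, Ctrc, read 13.85, 14.00 and 13.97 on treated arrays and 14.02, 13.90 and 13.99 on untreated arrays. All 12 were lowest on treated array 1 among the treated arrays.

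Genes of the zymogen granule and of acinar secretion reached below the top of the scale, and some of them were called. Of 13 tested, 3 rose on treated against untreated arrays and 4 fell from treated to withdrawal arrays, against 20.9% of all tested probe sets called higher and 32.6% called lower in these comparisons. Their counts were thus near the share of all probe sets, and their median differences were 0.52 and −0.26. Rab3d, a small GTPase of the granule membrane, was 0.55 higher on treated than on untreated arrays (limma adjusted p = 0.0101). It was 0.66 lower on withdrawal than on treated arrays. Vamp8, the granule fusion protein, was 0.67 higher (limma adjusted p = 0.0124) and 0.74 lower in the same 2 comparisons. The protease inhibitor Serpina1 was 0.49 higher (limma adjusted p = 0.0188) and 0.45 lower in them. Serpini2, a pancreas-specific serpin, fell by 0.87 from treated to withdrawal arrays (limma adjusted p = 0.0189).

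Those calls depended on the scaling. After quantile normalization 0 of the 13 genes were called in treated minus untreated (limma), and the differences of Rab3d, Vamp8 and Serpina1 were 0.01, 0.17 and 0.09. In withdrawal minus treated the quantile values were 0.04, −0.08 and 0.07, and Serpini2 was at −0.19. Without treated array 1, 8 of the 13 rose and 7 fell in the same comparisons, and without untreated array 2, 0 rose. Of all 20695 tested probe sets, limma called 6319 (66.7% higher) in treated minus untreated without treated array 1. In withdrawal minus treated it then called 9511 (30.6% higher). Without untreated array 2 it called 2033 in treated minus untreated (72.0% higher).

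Among 6 tested acinar transcription factors, 1 rose on treated against untreated arrays and 1, the same gene, fell from treated to withdrawal arrays, against 20.9% and 32.6% of all probe sets. Xbp1 drives the secretory protein folding program and is also made in beta cells. It was 0.77 higher on treated than on untreated arrays (limma adjusted p = 0.00882). On withdrawal arrays it was 0.73 lower than on treated arrays (limma adjusted p = 0.00573). Its quantile normalized differences, treated minus untreated and withdrawal minus treated, were 0.21 and 0.04. Ptf1a, the acinar factor whose E-box form was searched for in the promoter sequences, read 8.07, 9.38 and 9.22 on treated, 8.11, 8.76 and 9.31 on withdrawal, and 8.80, 8.63 and 9.16 on untreated arrays. Its groups overlapped, with a treated minus untreated difference of 0.03.

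Of 10 tested genes for acinar receptors, amino acid handling and protein folding, 2 rose on treated arrays and 3 fell from treated to withdrawal arrays, against the 20.9% and 32.6% of all probe sets. Slc3a1, the heavy chain of a cystine and dibasic amino acid transporter, read 6.90, 6.78 and 6.98 on treated, 5.62, 6.20 and 6.08 on withdrawal, and 5.98, 6.01 and 5.94 on untreated arrays. Its treated arrays lay above all others, treated array 1 among them. Slc3a1 was 0.91 higher on treated than on untreated arrays (limma adjusted p = 0.00285). On withdrawal arrays it was 0.92 lower than on treated arrays (limma adjusted p = 0.00136). After quantile normalization the differences were 0.81 and −0.83, both called (limma adjusted p = 0.00642 and 0.00360).

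The amino acid transporter Slc7a8 was 0.59 higher on treated than on untreated arrays (limma adjusted p = 0.0172). On withdrawal arrays it was 0.70 lower than on treated arrays (limma adjusted p = 0.00473). By quantile values these differences were 0.03 and 0.05, both positive, so the second changed direction. Gatm, which makes the creatine precursor, fell by 0.72 from treated to withdrawal arrays (limma adjusted p = 0.0279). After quantile normalization that difference was 0.02 in the other direction and was not called. Without treated array 1, 7 of these 10 genes rose and 8 fell in the same comparisons. Of all 20695 tested probe sets, limma then called 6319 (66.7% higher) in treated minus untreated and 9511 (30.6% higher) in withdrawal minus treated.

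The granule, transcription factor and receptor lists did not share 1 array pattern among their genes. Among the treated arrays, array 1 was the lowest in 8 and the highest in 5 of 14 zymogen granule genes, the lowest in 5 and the highest in 1 of 7 transcription factors, and the lowest in 8 and the highest in 2 of 11 receptor and amino acid genes. Rab3d read 9.95, 9.85 and 9.79 and Vamp8 9.89, 9.40 and 9.24 on treated arrays, highest on array 1, as were Serpina1 and Xbp1. Other genes were low on that array as Amy1 was, and 2 of them, chosen for this after their values were seen, are described next. Cuzd1, a zymogen granule membrane protein, read 10.32, 12.56 and 12.15 on treated, 10.80, 10.81 and 11.31 on withdrawal, and 10.71, 10.85 and 10.81 on untreated arrays. Tmed6, a cargo receptor of the secretory path, read 8.62, 10.72 and 10.06, then 8.97, 9.22 and 9.54, then 9.36, 9.23 and 9.36. For both, treated array 1 was the lowest of all 9 arrays and treated arrays 2 and 3 the highest.

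With all arrays, the treated minus untreated difference was 0.89 ± 0.42 for Cuzd1 and 0.48 ± 0.39 for Tmed6, neither called (limma adjusted p = 0.131 and 0.359). Without treated array 1 they were 1.57 and 1.07, a description and not a test, since the genes were picked for their low value on that array. Unlike these, Amy1 on treated array 1 stayed above every untreated array.

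**Figure D5:**
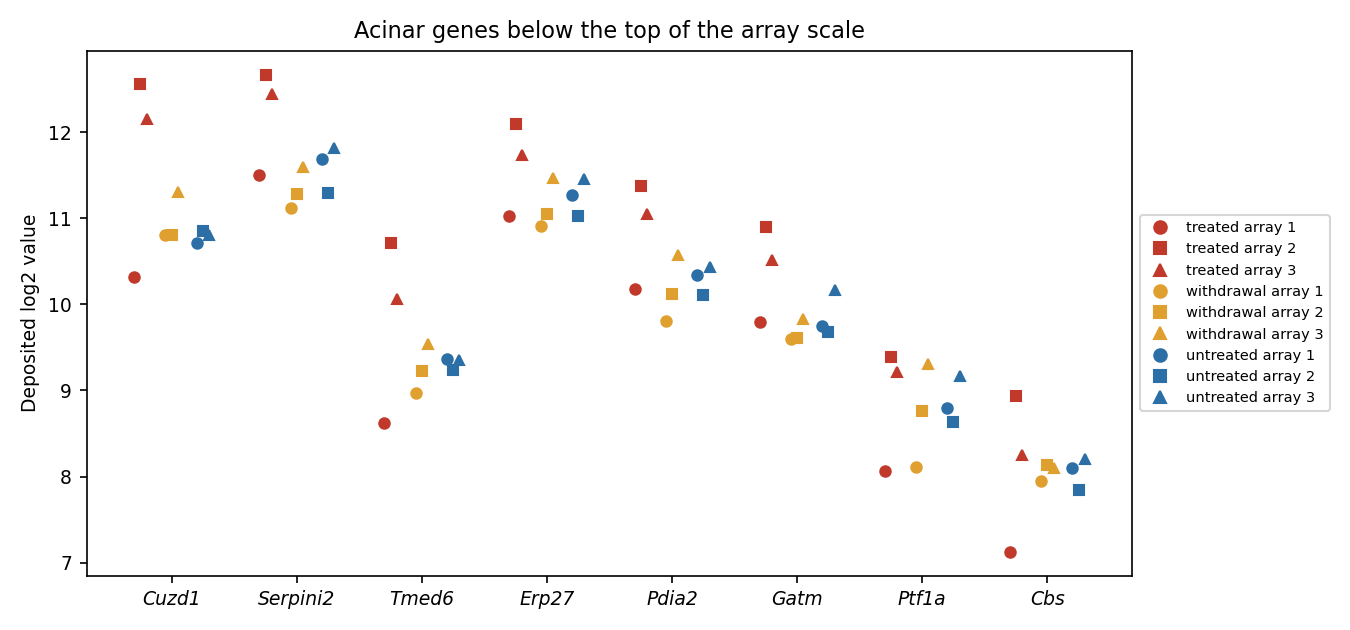
Deposited log2 values (y axis) of 8 acinar genes below the top of the scale (x axis), by group colour and array marker; the genes were picked after their values were seen. In each gene treated arrays 2 and 3 lie above treated array 1, as for Cuzd1 at 12.56 and 12.15 against 10.32.

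The genes most like Amy1 over the 9 arrays, by the root mean square of the difference between centred log2 values, were P2ry1 (0.44), Arg2 (0.61), Kcne1 (0.64) and Mat1a (0.65), against a median of 1.26 over 13946 genes. Arg2 is a mitochondrial arginase, Kcne1 a potassium channel subunit and Mat1a a methionine adenosyltransferase. P2ry1, a receptor for ADP, read 7.10, 8.84 and 8.22 on treated, 6.82, 6.86 and 6.96 on withdrawal, and 5.95, 6.01 and 6.20 on untreated arrays. Its 3 groups did not overlap, whereas those of Amy1 did between treated and withdrawal. On treated array 1 Arg2 read 4.44, below its untreated arrays (5.01, 5.23 and 4.76). Kcne1 read 7.32 there, within the range of its untreated arrays (6.93, 7.40 and 7.67). Mat1a read 8.31 there, above its untreated arrays (7.70, 7.24 and 7.44), as P2ry1 and Amy1 were above theirs.

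The Reg family, secreted lectins that acinar cells make in injury and inflammation, differed in its array pattern. Of 4 members on the array, 3 rose on treated against untreated arrays: Reg3a by 0.84, Reg3b by 1.22 and Reg3g by 3.81 (limma adjusted p = 0.0445, 0.0134 and 0.0125). Of all tested probe sets 20.9% were called higher there. Reg3g read 11.59, 6.31 and 10.08 on treated, 9.38, 9.46 and 9.42 on withdrawal, and 5.44, 5.82 and 5.30 on untreated arrays. Its highest value was on treated array 1 and its lowest treated value on treated array 2, the reverse of Amy1. After quantile normalization Reg3g alone of the 4 was called (3.45, limma adjusted p = 0.0186). In withdrawal minus untreated limma called 0 of the 4 (3 at an unadjusted p under 0.05), against 0.159% of all tested probe sets. It called 3 without treated array 1 or without treated array 2, where 398 and 54 of all 20695 were called.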

How the data were processed

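RNA of isolated rat islets was measured on 9 Affymetrix Rat Genome 230 2.0 arrays. The authors deposited 1 log2 value per probe set and array; the scale was inferred from the values, all positive within a narrow range. The submitters' processing notes name RMA and MAS5; the role and version of either were not given in the sources used here. Standard deviations over probe sets ran from 1.65 to 2.00 between arrays. Array intensity, and not read depth, sets the precision, and the number of arrays limits it. Probe sets were named through the platform annotation, updated by gene number with the GRCr8 gene table, which was used for names and neighbouring genes: 20826 probe sets had 1 symbol, 436 several and 9780 none, and 20758 symbols matched by gene number.

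Control probe sets (57) and the dimmest 33.3% by mean were left out, which left 20695. Groups were compared with limma 3.58.1 under R 4.3.3, fitting 1 mean for each group to all 9 arrays with lmFit, moderating with eBayes and adjusting p by Benjamini-Hochberg over all tested probe sets, with the F test for any difference. No covariate was used. On simulated data of 20695 probe sets the share of log2 changes of size 1 that limma found was 82%, and of size 2 it was 99%, for treated minus untreated, 77% and 98% for withdrawal minus untreated, and 72% and 98% for withdrawal minus treated. The simulated probe sets were independent and shared no shift over an array.

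The alternatives tried were median centring and quantile normalization of the arrays, other filters, a robust variance trend, weighted arrays, a fit of 6 arrays, the replicate block, each array left out, and quantile normalization without treated array 1. Averaging the probe sets of a gene was not run, since each gene had 1. Same-numbered arrays were not taken as pairs, since the correlation of their deviations from group means was not over 0.1 for every number in any comparison. It ran from −0.28 to 0.50, and number 2 was positive in all 3 comparisons (0.31, 0.50 and 0.22). Alternatives for the F test, for other lists and for named acinar genes, the spaced motif and the genes of the last acinar plot were chosen after seeing the data. The members and gene lists were chosen with earlier results of these data known. Named genes were all 10 members, every acinar or Reg list gene that was called and, for a list with none called, up to 4 of smallest p, not all of which are printed; and the 4 genes most alike to a member spanning at least 2 on the log2 scale. A gene was represented by its brightest probe set. Plots were made in matplotlib 3.10.9 (Python 3.11.15).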

Additional observations from a re-analysis of the deposited data

How the results depend on the processing

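Over 594 alternative values of the enzyme probe sets, 32 changed sign, none of them called in either fit, and their largest size was 0.124 before and 0.067 after. Amy1 in treated minus untreated passed in all 18 alternatives, and the call of Amy2a3 was lost in 12 of 18; the cause was not tested. The number of enzyme probe sets called in treated minus untreated was 2, and 1 with trend and robust eBayes, 1 with only the 6 arrays compared, 1 with the replicate block, 1 to 2 when an array was left out, and 3 (with Pnlip) with array weights and with quantile normalization without treated array 1. In withdrawal minus untreated it was 0, against 2 with array weights (Amy1 and Pnlip), 1 with the 6 arrays compared, 1 with quantile normalization without treated array 1, and 0 to 1 when an array was left out. In withdrawal minus treated it was 0, against 2 with array weights (Amy1 and Amy2a3), 1 with the replicate block (Amy1, −1.11, limma adjusted p = 0.0417), 1 with quantile normalization without treated array 1, and 0 to 1 when an array was left out. The F test called 1, against 3 with array weights, 2 with quantile normalization without treated array 1, and 1 to 2 when an array was left out. With array weights limma called 7171 of all 20695 tested probe sets in treated minus untreated and 11228 in withdrawal minus treated. The F test then called 11381. With the replicate block the counts over all probe sets were 6414 and 9434 in these comparisons. With quantile normalization without treated array 1 they were 4587 and 6801, and 6222 by the F test. The replicate numbers were not taken to pair the arrays, and the block changed the count of all called probe sets from 33 to 50 in withdrawal minus untreated and by less than 1.5 times in the other comparisons.

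Over all probe sets, limma called 5817 in treated minus untreated (74.2% higher), 3559 after quantile normalization (45.1% higher), 3209 with the 6 arrays compared, and 2033 (without untreated array 2) to 6319 when an array was left out, with 3820 without untreated array 1. In withdrawal minus untreated it called 33, against 87 after quantile normalization, 3275 with array weights, 494 with the 6 arrays compared, 409 with quantile normalization without treated array 1, and 7 to 398 (without treated array 1) when an array was left out. In withdrawal minus treated it called 9057 (25.5% higher), 6032 after quantile normalization (49.9% higher), and 5587 (without withdrawal array 2) to 9511 when an array was left out. The F test called 7656, against 5076 after quantile normalization and 4768 to 8609 when an array was left out.

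Called falls from treated to withdrawal arrays turned sign after quantile normalization for Gatm (0.021), Rab3d (0.041), Xbp1 (0.038), Slc7a8 (0.055) and Serpina1 (0.072, and 0.0026 without treated array 1 as well), none of them called there; the cause was not tested. Reg3g in the same comparison went from 0.09 to −1.42 without treated array 2 and to 1.22 without treated array 1. Whether values near the top of the scale were compressed was not tested.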
